A study of Mus musculus with 15 samples.

Results

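The tumour necrosis factor (TNF) superfamily and the TNF receptor superfamily were followed at the RNA level in mouse hepatocellular carcinomas and in normal liver. The members are the 35 rows, of 23284 gene symbols counted, whose symbol is Tnf, Lta, Ltb or Ltbr, or begins with Tnfsf or Tnfrsf and a digit. They comprise 14 ligands and 21 receptors. Relatives with other symbols, such as Cd40 and Fas, fall outside that rule and are described separately.

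Poly-A RNA was sequenced from 6 tumours of Hmgb1-deleted mice (Hgmb1Dhep in the labels, Hmgb1 fl/fl with Albumin-Cre), 6 tumours of floxed control mice (Hgmb1fl/fl) and 3 normal livers of C57Bl/6 control mice. Both tumour groups had received DEN, a liver carcinogen, at 25 mg/kg by intraperitoneal injection on day 15 after birth. They had also received CCl4, a liver toxin, in corn oil at 0.5 ul/g each week from week 8 on, over 15 weeks. The title of the study asks what Hmgb1, a nuclear protein that signals tissue damage once released, does in liver tumour formation.

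Several features limit these groups as models. Albumin-Cre acts in hepatocytes and in cells derived from their shared precursor with bile duct cells, so lymphocytes, macrophages, endothelium and stellate cells of an Hmgb1-deleted tumour keep an intact gene. The labels name no treatment and no floxed allele for the normal livers, and non-tumour tissue of treated mice was not analysed here, so tumour, treatment and strain cannot be told apart in a comparison with normal liver. The sources used here do not give the strain of the tumour-bearing mice, or sex and age at sampling. They also do not say whether the tumours came from separate mice, so a p-value sets a difference only against sample-to-sample spread, which may be technical.

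TNF superfamily ligands are mostly membrane-anchored trimers that bind receptors with cysteine-rich repeats outside the cell. Some receptors carry a death domain and can assemble a caspase-activating complex, others bind TRAF adaptors and turn on NF-kB, and a few lack a signalling domain and act as decoys. In liver the family is known for hepatocyte death, for regeneration and for the exchange of signals between epithelium and immune cells.

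The libraries held 18973246 to 26293378 counts in Hmgb1-deleted tumours, 20191452 to 30929442 in floxed tumours and 23193714 to 26997782 in normal livers. Levels are given as CPM (counts scaled to a common library size) after TMM scaling over the 15 libraries, and 3 counts corresponded to 0.110 to 0.169 CPM. Hmgb1 itself averaged 14.8 ± 2.76 CPM (SD, n = 6) in Hmgb1-deleted tumours, 27.9 ± 3.36 CPM (n = 6) in floxed tumours and 23.9 ± 6.07 CPM (n = 3) in normal livers. Hmgb1 was lower in Hmgb1-deleted than in floxed tumours, with a log2 fold change of -0.90 ± 0.14 (SE, edgeR adjusted p = 0.00509), and each deleted tumour was below each floxed tumour. Albumin, the defining hepatocyte transcript, took 7.69% to 12.997% of counts in Hmgb1-deleted tumours, 11.2% to 19.6% in floxed tumours and 7.66% to 9.37% in normal livers. Earlier results of these data had set Hmgb1-deleted tumours 3, 4 and 6 nearest to normal liver and 2 and 5 apart from the rest, so counts are also given without them. That split came from the same data, so a call gained or lost without these tumours is not independent evidence.

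The 250 bases before the transcription start are shown for 4 members on which the results below turn: Ltb, Tnfrsf12a, Tnfrsf18 and Tnfsf13. The sequences are RefSeq's, of build GRCm38.p6, read 5′ to 3′ on the gene's strand. Capitals mark matches on either strand to the NF-kB consensus GGGRNNYYCC or to the AP-1 site TGACTCA. In the consensus R is A or G, Y is C or T, and N is any base. No 2 matches of the different motifs overlapped. Ltb lies on the plus strand at chr17:35194257-35194506, Tnfrsf12a on the minus strand at chr17:23677450-23677699, Tnfrsf18 on the plus strand at chr4:156026072-156026321, and Tnfsf13 on the minus strand at chr11:69685555-69685804.
Ltb: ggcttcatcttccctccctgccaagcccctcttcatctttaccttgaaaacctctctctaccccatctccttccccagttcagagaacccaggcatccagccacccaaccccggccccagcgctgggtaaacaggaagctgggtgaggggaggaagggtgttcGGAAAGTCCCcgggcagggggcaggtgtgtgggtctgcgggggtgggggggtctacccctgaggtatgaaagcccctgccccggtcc
Tnfrsf12a: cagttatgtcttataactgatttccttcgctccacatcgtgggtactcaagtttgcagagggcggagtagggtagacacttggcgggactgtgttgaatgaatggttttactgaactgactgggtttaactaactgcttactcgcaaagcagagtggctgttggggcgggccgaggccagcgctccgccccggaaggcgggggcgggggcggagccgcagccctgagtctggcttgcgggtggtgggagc
Tnfrsf18: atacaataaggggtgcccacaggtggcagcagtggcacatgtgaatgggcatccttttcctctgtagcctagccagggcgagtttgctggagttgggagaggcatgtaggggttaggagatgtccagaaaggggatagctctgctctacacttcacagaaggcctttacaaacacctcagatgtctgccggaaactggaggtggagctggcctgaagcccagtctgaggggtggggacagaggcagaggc
Tnfsf13: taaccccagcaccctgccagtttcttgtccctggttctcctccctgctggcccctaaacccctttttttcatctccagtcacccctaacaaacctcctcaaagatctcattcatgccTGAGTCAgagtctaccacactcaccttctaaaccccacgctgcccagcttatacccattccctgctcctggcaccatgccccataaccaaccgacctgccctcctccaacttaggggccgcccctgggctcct
The Ltb window held an NF-kB match on the opposite strand, which starts 87 bases before the transcription start. The Tnfsf13 window held an AP-1 match on the opposite strand, 133 bases before the start. The windows of Tnfrsf12a and Tnfrsf18 held neither motif. Of the 35 members 28 had a start in RefSeq's table, with 32 windows in all. An NF-kB match stood in 4 of the 32 windows (12.5%), those of Ltb, Tnfrsf25, Tnfrsf8 and Tnfrsf9, against 7.25% of all 32851 windows of that length. An AP-1 match stood in 5 of the 32 (15.6%), those of Tnfrsf8, Tnfrsf9, Tnfsf13, Tnfsf13b and Tnfsf14, against 4.46% of all windows. A match describes the letters and is not a measured binding site.

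Some members are neighbours in the genome. In the RefSeq annotation of GRCm38.p6, 9 of the 35 are on chromosome 4, 7 on chromosome 17 and 3 each on chromosomes 1, 7, 11 and 14. Of 24 pairs of members that follow each other on a chromosome 11 have 0 or 1 protein-coding gene between them, and the others have 14 to 751. Ltb, Tnf and Lta follow one another on chromosome 17 with no protein-coding gene between them. The same holds for Tnfrsf26, Tnfrsf22 and Tnfrsf23 on chromosome 7 and for Tnfrsf4 and Tnfrsf18 on chromosome 4. Ltbr and Tnfrsf1a on chromosome 6, and Tnfsf13 and Tnfsf12 on chromosome 11, have 1 such gene between them.

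Of the 35 members 23 had enough counts to be tested between Hmgb1-deleted and floxed tumours, 23 between floxed tumours and normal liver, and 25 between Hmgb1-deleted tumours and normal liver. Members with low counts in both groups were not tested, so a member that passed this filter only through the group where it is high had to differ. Counts in the 3 normal livers were few for members such as Tnf (2, 3 and 2), Tnfsf13b (3, 7 and 3) and Tnfrsf4 (5, 7 and 6). The same held for Tnfrsf22 (10, 8 and 4), Tnfsf13 (10, 11 and 6) and Tnfrsf10b (10, 5 and 17). Their calls against normal liver, and the shares and medians that include them, carry this limit. A member is called higher or lower where edgeR's quasi-likelihood test gave a Benjamini-Hochberg adjusted p under 0.05 over all genes tested. The 2 comparisons with normal liver share the same 3 livers and are not independent of each other.

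Between Hmgb1-deleted and floxed tumours 1 of the 23 tested members was lower, Tnfrsf18, and none was higher. At an unadjusted p under 0.05 there were 10 lower and 1 higher, where 11% of all genes were lower and 13.3% higher. DESeq2 called 6 lower and 1 higher, where it called 7.31% of all genes lower and 7.34% higher. The called share among members was 4.35%, where 7.78% of the 13433 genes tested were called, 4.45% higher and 3.33% lower. The median log2 fold change was -0.36 over the 23 tested members, against 0.02 over all genes tested. Without Hmgb1-deleted tumours 3, 4 and 6 there were 5 calls (1 higher, 4 lower), and without 2 and 5 there were 2, both lower. Of all genes 808 and 1082 were called in these 2 fits, against 1045 in the main fit. Single libraries also moved the count of members. Without Hmgb1-deleted tumour 1 there were 3 calls, and without Hmgb1-deleted tumour 2, Hmgb1-deleted tumour 6 or floxed tumour 5 there were 2, all lower. Of all genes 1054, 940, 910 and 921 were called in these 4 fits, in the same order.

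Between floxed tumours and normal liver 15 of the 23 tested members were higher, 1 was lower and 7 were not called. The called share was 69.6%, where 48.7% of the 13784 genes tested were called, 24.9% higher and 23.8% lower. The median log2 fold change was 1.94 over the tested members, against 0.06 over all genes tested. The 15 were 5 ligands of the 7 tested (Ltb, Tnf, Tnfsf12, Tnfsf13 and Tnfsf13b) and 10 receptors of the 16 tested, and the member that was lower was the receptor Tnfrsf14.

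Between Hmgb1-deleted tumours and normal liver 10 of the 25 tested members were higher and none was lower. At an unadjusted p under 0.05 there were 12 higher and 1 lower, where 25.3% of all genes were higher and 22% lower. DESeq2 called 11 higher and 1 lower, where it called 22.7% of all genes higher and 19.8% lower. The called share was 40%, where 34.7% of the 13784 genes tested were called, 18.1% higher and 16.6% lower. The median log2 fold change was 1.205 over the tested members, against 0.05 over all genes tested. The 10 were the ligands Ltb, Tnf and Tnfsf13b, of 8 tested, and 7 receptors of 17 tested. Without normal liver 1 there were 5 calls and without normal liver 3 there were 6, all higher. All genes called also fell in these fits, from 4787 to 2113 without normal liver 1 and 3109 without normal liver 3.

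**Figure D1:**
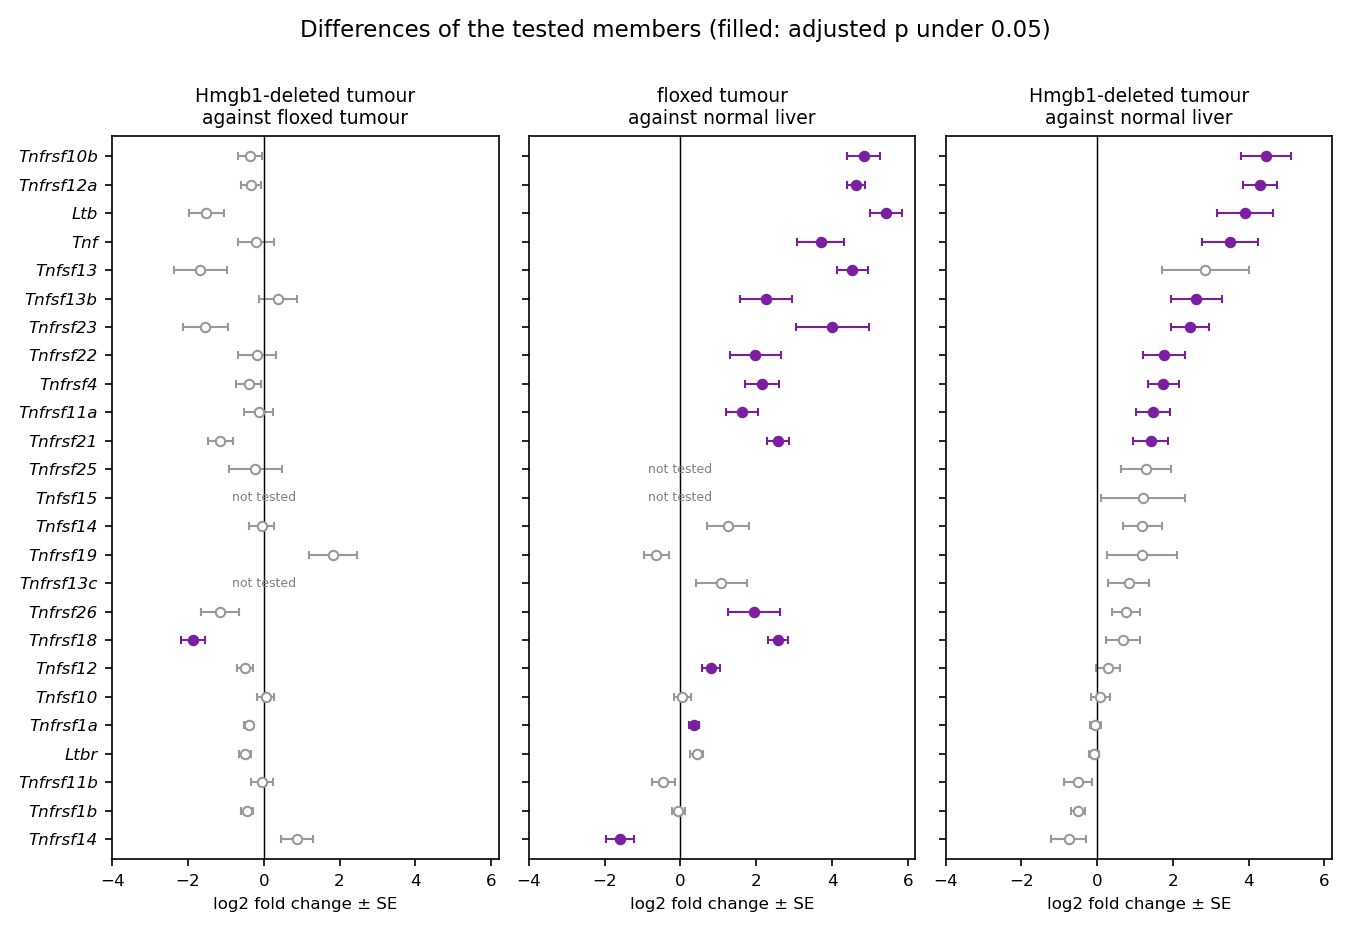
Log2 fold change ± SE of the 25 members tested in at least 1 comparison, 1 panel per comparison, with filled symbols for an edgeR adjusted p under 0.05. Most filled symbols stand right of 0 in both comparisons with normal liver, and Tnfrsf18 is the only filled symbol between Hmgb1-deleted and floxed tumours.

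Per kilobase of exon, which allows levels of different genes to be set side by side, the receptors Tnfrsf12a, Ltbr and Tnfrsf1a led the family in tumours. In Hmgb1-deleted tumours Tnfrsf12a averaged 47.4 ± 18.6 CPM per kilobase, Ltbr 40.9 ± 5.88 and Tnfrsf1a 36.4 ± 5.03 (SD, n = 6), and their ranges overlapped. In floxed tumours Tnfrsf12a averaged 61.1 ± 13.2 CPM per kilobase, Ltbr 58.4 ± 11.7 and Tnfrsf1a 48.5 ± 3.85, again with overlapping ranges. In normal liver Ltbr at 43.6 ± 2.67 and Tnfrsf1a at 37.9 ± 3.45 CPM per kilobase (SD, n = 3) led, and Tnfrsf12a was the 6th at 2.46 ± 0.0903. Ltb stood 4th in both tumour groups, at 7.52 ± 5.36 CPM per kilobase in Hmgb1-deleted and 21.99 ± 9.23 in floxed tumours, and 12th in normal liver at 0.511 ± 0.0955. Tnfrsf1b, the 5th in both tumour groups and the 3rd in normal liver, averaged 7.30 ± 1.64 CPM per kilobase in Hmgb1-deleted tumours, 10.03 ± 1.61 in floxed tumours and 10.5 ± 1.68 in normal livers. Lengths are from GENCODE M21 on GRCm38, another build than the one the counts were made on.

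**Figure D2:**
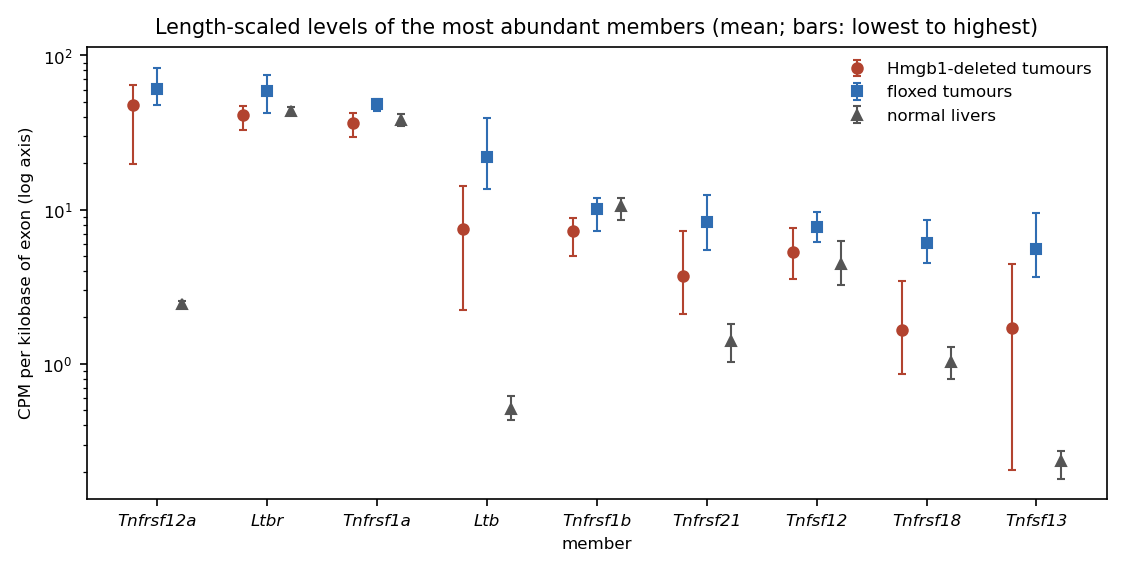
Mean level in CPM per kilobase of exon (log axis) of 9 members, with bars from the lowest to the highest library, for 6 Hmgb1-deleted tumours, 6 floxed tumours and 3 normal livers. Tnfrsf12a and Ltb stand far above normal liver in both tumour groups, while the group means of Ltbr, at 40.9, 58.4 and 43.6 CPM per kilobase from left to right, and of Tnfrsf1a and Tnfrsf1b lie nearer to each other.

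In the lymphotoxin system the ligand Ltb differed more than the receptor Ltbr. Ltb encodes lymphotoxin beta, which anchors the lymphotoxin heterotrimer at the surface of lymphocytes and signals through Ltbr to noncanonical NF-kB. Ltb ranged from 3.40 CPM (lowest) over 8.84 (median) to 21.5 CPM (highest) in Hmgb1-deleted tumours. In floxed tumours the lowest, median and highest values were 20.8, 29.1 and 59.3 CPM. The normal livers held 0.934, 0.652 and 0.739 CPM of Ltb. Every tumour was above every normal liver, and among Hmgb1-deleted tumours only number 2 (21.5 CPM) lay inside the floxed range, with number 1 (20.7 CPM) just under it. Ltb was higher than in normal liver in floxed tumours (log2 fold change 5.42 ± 0.42, SE; edgeR adjusted p = 8.57e-06) and in Hmgb1-deleted tumours (3.90 ± 0.75, adjusted p = 0.00555). In bulk tissue more cells of a type and more RNA per cell cannot be told apart. The log2 fold change of Ltb between Hmgb1-deleted and floxed tumours was -1.52 ± 0.46 and not called (adjusted p = 0.0604). It passed without Hmgb1-deleted tumour 1 (adjusted p = 0.0415), without Hmgb1-deleted tumour 2 (0.0368), with DESeq2 and with all 15 samples in 1 fit, and over all alternatives its adjusted p ran between 0.00755 and 0.191.

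Lta, the soluble lymphotoxin, was under 0.6 CPM in every library and was not tested. It lay between 0.082 and 0.560 CPM in Hmgb1-deleted tumours, between 0.119 and 0.519 CPM in floxed tumours and at 0.041, 0.041 and 0 CPM in normal livers, where 0.041 CPM is 1 count. Ltbr, the lymphotoxin beta receptor of epithelial and stromal cells, ranged over 77.0, 97.8 and 111 CPM (lowest, median, highest) in Hmgb1-deleted tumours and 99.5, 136 and 176 CPM in floxed tumours. Its values in the normal livers were 102, 96.8 and 109 CPM. The tumour groups overlapped, and the log2 fold change was -0.49 ± 0.15 between Hmgb1-deleted and floxed tumours (adjusted p = 0.0679). Against normal liver the log2 fold change in floxed tumours was 0.43 ± 0.18 (adjusted p = 0.0725). Without floxed tumour 5 both comparisons passed, at adjusted p = 0.0345 (0.0115 to 0.147 over alternatives) for Hmgb1-deleted against floxed tumours and 0.0192 (0.0148 to 0.209) for floxed tumours against normal liver.

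Tnf, the founding ligand and a product of activated macrophages and T cells, was a low-count gene here. It ranged over 0.492, 0.944 and 2.86 CPM (lowest, median, highest) in Hmgb1-deleted tumours and 0.437, 1.45 and 2.34 CPM in floxed tumours. The normal livers held 0.0812, 0.122 and 0.0985 CPM, which is 2 or 3 counts per library. Every tumour exceeded every normal liver, and the tumour groups overlapped almost fully. Pooled over libraries, the ratio to normal liver was 12.3 in Hmgb1-deleted tumours (95% exact interval 5.85 to 31.04, counting error only) and 13.4 in floxed tumours (6.38 to 33.9). Tnf was called higher in Hmgb1-deleted tumours (log2 fold change 3.51 ± 0.74, adjusted p = 0.00759) and in floxed tumours (3.71 ± 0.62, adjusted p = 0.000859) than in normal liver. Its log2 fold change between Hmgb1-deleted and floxed tumours was -0.20 ± 0.47 (adjusted p = 0.847), and the sign turned in 3 alternatives, among them the one without floxed tumour 3 (0.017, adjusted p = 0.989; 0.261 to 0.989 over alternatives).

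Tnfrsf1a, the death-domain TNF receptor of most cell types, was at 76.5 to 110 CPM in Hmgb1-deleted tumours (median 94.8), at 114 to 135 CPM in floxed tumours (median 126) and at 96.1, 90.7 and 108 CPM in normal livers. The ranges of Tnfrsf1a in the tumour groups did not overlap, and each floxed tumour exceeded each normal liver. The difference between Hmgb1-deleted and floxed tumours was small and was not called, with a log2 fold change of -0.39 ± 0.12 (adjusted p = 0.0574). It passed in 5 of 21 alternatives. These were RLE scaling factors, a filter of at least 1 CPM, DESeq2, all 15 samples in 1 fit, and the fit without Hmgb1-deleted tumour 1 (adjusted p = 0.0475; 0.00306 to 0.326 over alternatives). Tnfrsf1a was called higher in floxed tumours than in normal liver (0.36 ± 0.13, adjusted p = 0.0397), but this call ended without any 1 of floxed tumours 2, 3, 4 or 6 or normal livers 1, 2 or 3, with adjusted p between 0.0524 and 0.17. It also ended with no filter and with a replicate block.

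Tnfrsf1b, the TNF receptor of leukocytes and endothelium that binds TRAF adaptors and has no death domain, averaged 27.9 ± 6.27 CPM in Hmgb1-deleted tumours, 38.3 ± 6.14 CPM in floxed tumours and 40.1 ± 6.40 CPM in normal livers (SD, n = 6, 6 and 3). Its log2 fold change was -0.44 ± 0.16 between Hmgb1-deleted and floxed tumours (adjusted p = 0.111) and -0.51 ± 0.19 between Hmgb1-deleted tumours and normal liver (adjusted p = 0.0591). Neither was called.

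In the TWEAK system the receptor differed far more from normal liver than the ligand. Tnfrsf12a encodes Fn14, the small receptor of the cytokine TWEAK, which injured epithelium is known to express. Tnfrsf12a ranged over 38.0, 105 and 125 CPM (lowest, median, highest) in Hmgb1-deleted tumours and 91.7, 111 and 161 CPM in floxed tumours. Normal livers had 4.75, 4.93 and 4.58 CPM. All 12 tumours were far above all 3 normal livers, and Hmgb1-deleted tumours 3 and 4, at 57.6 and 38.0 CPM, were the lowest tumours. Tnfrsf12a was higher than in normal liver in Hmgb1-deleted tumours (log2 fold change 4.29 ± 0.45, adjusted p = 0.00072) and in floxed tumours (4.63 ± 0.23, adjusted p = 1.09e-06). Between the tumour groups its log2 fold change was -0.34 ± 0.27 (adjusted p = 0.485).

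Tnfsf12 encodes TWEAK itself. It averaged 8.10 ± 2.44 CPM in Hmgb1-deleted tumours, 11.7 ± 2.02 CPM in floxed tumours and 6.74 ± 2.47 CPM in normal livers (SD, n = 6, 6 and 3). Tnfsf12 was called higher in floxed tumours than in normal liver (log2 fold change 0.80 ± 0.24, adjusted p = 0.0194), and the call ended without normal liver 1 (adjusted p = 0.0985) or normal liver 2 (0.09; 0.00469 to 0.0985 over alternatives). Its log2 fold change was -0.50 ± 0.20 between Hmgb1-deleted and floxed tumours (adjusted p = 0.153) and 0.29 ± 0.31 between Hmgb1-deleted tumours and normal liver (adjusted p = 0.482). In GENCODE, 46.8% of its 50-base stretches are shared with Tnfsfm13, a read-through transcript of Tnfsf12 and Tnfsf13, so counts of the pair are uncertain.

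The TRAIL system showed a death receptor and its decoys above normal liver. Tnfrsf10b encodes the mouse TRAIL receptor with a death domain. It ranged over 3.23, 11.4 and 15.9 CPM (lowest, median, highest) in Hmgb1-deleted tumours and 8.09, 14.1 and 17.9 CPM in floxed tumours. Its values in the normal livers were 0.406, 0.204 and 0.837 CPM. Every tumour was above every normal liver, and Hmgb1-deleted tumours 4 and 3, at 3.23 and 6.11 CPM, were the lowest tumours. The log2 fold change of Tnfrsf10b against normal liver was 4.46 ± 0.67 in Hmgb1-deleted tumours (adjusted p = 0.00233) and 4.83 ± 0.44 in floxed tumours (adjusted p = 1.98e-05). Without normal liver 3 these were 5.08 and 5.43, a fold over 1.5 times larger. The log2 fold change between Hmgb1-deleted and floxed tumours was -0.36 ± 0.33 (adjusted p = 0.537).

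Tnfsf10, which encodes TRAIL, differed little: it averaged 7.55 ± 2.17 CPM in Hmgb1-deleted tumours, 7.43 ± 2.095 CPM in floxed tumours and 7.197 ± 0.490 CPM in normal livers (SD, n = 6, 6 and 3), and no comparison was called.

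Tnfrsf22 and Tnfrsf23 encode the mouse decoy receptors of TRAIL, and Tnfrsf26 is their neighbour and relative. Tnfrsf23 ranged over 1.26, 2.90 and 5.11 CPM (lowest, median, highest) in Hmgb1-deleted tumours and 1.95, 6.36 and 29.0 CPM in floxed tumours. The normal livers held 0.731, 0.611 and 0.295 CPM. All tumours were above all normal livers, and floxed tumour 5 stood apart at 29.0 CPM, where the other 5 floxed tumours did not pass 7.08 CPM. Tnfrsf23 was higher than in normal liver in Hmgb1-deleted tumours (log2 fold change 2.45 ± 0.50, adjusted p = 0.00708) and in floxed tumours (4.01 ± 0.95, adjusted p = 0.00616). Without floxed tumour 5 the log2 fold change of floxed tumours against normal liver was 3.13 and still called. In Hmgb1-deleted against floxed tumours it was -1.55 ± 0.59 (adjusted p = 0.129), and without floxed tumour 5 it was -0.69 (adjusted p = 0.337; 0.0431 with DESeq2 to 0.337 over alternatives).

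Tnfrsf22 averaged 1.08 ± 0.525 CPM in Hmgb1-deleted tumours, 1.24 ± 0.956 CPM in floxed tumours and 0.310 ± 0.106 CPM in normal livers. It was called higher than in normal liver in Hmgb1-deleted tumours (log2 fold change 1.78 ± 0.56, adjusted p = 0.0341) and in floxed tumours (1.97 ± 0.67, adjusted p = 0.0325). Both calls were sensitive to leaving out 1 library. The call for Hmgb1-deleted tumours ended without Hmgb1-deleted tumour 1 or 3 or any 1 normal liver (adjusted p between 0.0511 and 0.117). The log2 fold change lay between 1.55 and 2.01 in these fits. The call for floxed tumours ended without floxed tumour 1 or any 1 normal liver (0.0538 to 0.115). There the log2 fold change lay between 1.72 and 2.1995. Without 1 normal liver, fewer of all genes were called as well. For Hmgb1-deleted tumours 2113 to 3109 were called, against 4787 in the main fit. For floxed tumours 4860 to 5344 were called, against 6714. Tnfrsf22 and Tnfrsf23 share sequence, 27.4% and 19.3% of their 50-base stretches occurring in other genes, so their counts are uncertain.

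Tnfrsf26 was at 0.738 to 2.098 CPM in Hmgb1-deleted tumours, at 1.31 to 9.44 CPM in floxed tumours and at 0.812, 0.692 and 0.936 CPM in normal livers. It was called higher in floxed tumours than in normal liver (log2 fold change 1.94 ± 0.70, adjusted p = 0.0396). Floxed tumour 5 held the highest value, 9.44 CPM, and without it the log2 fold change was 1.17, still called. The call ended on library totals, without floxed tumour 4 (adjusted p = 0.0501), or without normal liver 1, 2 or 3 (0.11, 0.122 and 0.0904). Its log2 fold change was -1.15 ± 0.49 between Hmgb1-deleted and floxed tumours (adjusted p = 0.17), or -0.40 without floxed tumour 5 (0.455; 0.0983 to 0.455 over alternatives), and 0.76 ± 0.36 between Hmgb1-deleted tumours and normal liver (adjusted p = 0.123). Tnfrsf23 and Tnfrsf26 also overlap an antisense gene, E230032D23Rik, and the strand setting of the counting is not given in the sources used here.

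Of the other death-domain receptors, Tnfrsf21 was called and Tnfrsf25 was not. Tnfrsf21 encodes death receptor 6. It ranged over 8.66, 10.6 and 30.1 CPM (lowest, median, highest) in Hmgb1-deleted tumours and 22.4, 32.5 and 51.3 CPM in floxed tumours. Its values in the normal livers were 5.77, 7.45 and 4.23 CPM. Hmgb1-deleted tumours 3 and 6, at 23.1 and 30.1 CPM, lay within the floxed range and the other 4, at 8.66 to 11.6 CPM, lay between normal liver and the floxed range. Tnfrsf21 was higher than in normal liver in floxed tumours (log2 fold change 2.57 ± 0.29, adjusted p = 8.37e-05) and in Hmgb1-deleted tumours (1.41 ± 0.47, adjusted p = 0.0421). The call for Hmgb1-deleted tumours ended without Hmgb1-deleted tumour 3 (adjusted p = 0.0607) or without normal liver 1, 2 or 3 (0.126, 0.0819 and 0.138). It also ended with no filter and with a replicate block. In Hmgb1-deleted against floxed tumours the log2 fold change was -1.15 ± 0.34 and was not called (adjusted p = 0.0546). It passed in 7 of 21 alternatives, among them without Hmgb1-deleted tumour 6 (-1.45, adjusted p = 0.0169; 0.00638 to 0.134 over alternatives). Tnfrsf25, death receptor 3, did not pass 3.45 CPM in any library. It was not called in the 2 comparisons where it was tested, and was not tested between floxed tumours and normal liver. Its ligand Tnfsf15 stayed under 0.9 CPM.

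In the RANK system the receptor was higher in tumours. Tnfrsf11a, which encodes RANK, ranged over 1.38, 3.53 and 5.42 CPM (lowest, median, highest) in Hmgb1-deleted tumours and 2.18, 2.99 and 6.91 CPM in floxed tumours. Normal livers had 1.46, 1.14 and 1.13 CPM. Hmgb1-deleted tumour 3 at 1.38 CPM was the only tumour within the range of normal liver. Tnfrsf11a was called higher in Hmgb1-deleted tumours (log2 fold change 1.48 ± 0.45, adjusted p = 0.0308) and in floxed tumours (1.62 ± 0.42, adjusted p = 0.00886) than in normal liver. The call for Hmgb1-deleted tumours ended without Hmgb1-deleted tumour 1 (adjusted p = 0.0521) or without normal liver 1, 2 or 3 (0.0816, 0.107 and 0.0961). It also ended with a replicate block and without Hmgb1-deleted tumours 2 and 5. Tnfrsf11b, the soluble decoy osteoprotegerin, lay between 2.05 and 7.13 CPM in all libraries and was not called, and the RANK ligand Tnfsf11 did not pass 0.476 CPM.

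Tnfrsf19, a receptor known from progenitor cells in several tissues, was at 3.94 to 67.8 CPM in Hmgb1-deleted tumours, at 2.73 to 5.93 CPM in floxed tumours and at 4.71, 7.01 and 12.9 CPM in normal livers. The high value came from Hmgb1-deleted tumour 5, and the next highest, tumour 2, held 14.1 CPM. The log2 fold change between Hmgb1-deleted and floxed tumours was 1.83 ± 0.63 and not called (adjusted p = 0.0951). Without Hmgb1-deleted tumour 5 it was 0.68 (adjusted p = 0.24), while it passed with DESeq2 (0.0217) and without Hmgb1-deleted tumours 3, 4 and 6 (0.0367). Over alternatives it lay between 0.36 and 2.47 (adjusted p 0.0217 to 0.509). The 7 cholangiocyte and progenitor markers summed to 1298 CPM in Hmgb1-deleted tumour 5 and to 6252 CPM in Hmgb1-deleted tumour 2, against 277 to 1117 CPM in the other Hmgb1-deleted tumours. Their sum was 361 to 1977 CPM in floxed tumours and 143 to 177 CPM in normal livers, and their part in the values of Tnfrsf19 was not tested.

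Of the B cell survival factors, Tnfsf13 showed the widest spread among Hmgb1-deleted tumours. Tnfsf13 encodes APRIL, which supports plasma cells. It ranged over 0.334, 1.104 and 7.26 CPM (lowest, median, highest) in Hmgb1-deleted tumours and 6.01, 8.44 and 15.7 CPM in floxed tumours. Its values in the normal livers were 0.406, 0.448 and 0.295 CPM. Hmgb1-deleted tumours 3 and 6 lay within the floxed range at 6.69 and 7.26 CPM, tumours 2 and 5 lay within the range of normal liver at 0.334 and 0.373 CPM, and tumours 1 and 4 lay between at 1.02 and 1.18 CPM. Tnfsf13 was higher in floxed tumours than in normal liver, with a log2 fold change of 4.54 ± 0.41 (adjusted p = 1.96e-05), and each floxed tumour exceeded each normal liver. The other comparisons were not called: the log2 fold change was -1.68 ± 0.70 between Hmgb1-deleted and floxed tumours (adjusted p = 0.16) and 2.86 ± 1.15 between Hmgb1-deleted tumours and normal liver (adjusted p = 0.0787). The comparison of Hmgb1-deleted tumours with normal liver passed without Hmgb1-deleted tumours 2 and 5, in DESeq2 and in a joint fit of the 15 libraries, and its log2 fold change ran between 0.62 and 3.38 over alternatives (adjusted p 0.00977 to 0.362). The difference from floxed tumours passed without Hmgb1-deleted tumours 3, 4 and 6 and with a replicate block. Over all alternatives its log2 fold change lay between -3.97 and -1.18 (adjusted p 0.00459 to 0.255). Leaving out tumours 3 and 6, the highest, or 2 and 5, the lowest, favours these passes, so the passes without them add no support. Of its 50-base stretches 57.3% are shared with Tnfsfm13 or with the antisense Tnfsf13os, so the counts may hold reads of both.

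Tnfsf13b encodes BAFF, the survival factor of mature B cells. It ranged over 0.451, 0.910 and 2.23 CPM (lowest, median, highest) in Hmgb1-deleted tumours and 0.272, 0.682 and 2.08 CPM in floxed tumours. The normal livers held 0.122, 0.285 and 0.148 CPM. All Hmgb1-deleted tumours were above all normal livers, and so were the floxed tumours other than number 3, at 0.272 CPM. Tnfsf13b was called higher in Hmgb1-deleted tumours (log2 fold change 2.62 ± 0.67, adjusted p = 0.0158) and in floxed tumours (2.26 ± 0.69, adjusted p = 0.0198) than in normal liver. Both calls ended without normal liver 1 (adjusted p = 0.0745 for Hmgb1-deleted and 0.0855 for floxed tumours) or without normal liver 3 (0.0604 and 0.071). The call for floxed tumours also ended with a replicate block. The 3 receptors of BAFF and APRIL were scarce. Tnfrsf13c, the BAFF receptor, did not pass 0.735 CPM, Tnfrsf13b 0.278 CPM and Tnfrsf17 0.0795 CPM in any library. Summed B and plasma cell markers, 6 genes, were at 7.98 to 39.2 CPM in Hmgb1-deleted tumours, 19.6 to 76.6 CPM in floxed tumours and 8.80 to 9.45 CPM in normal livers, and their part in these values was not tested.

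The costimulatory receptors held the member that fell in Hmgb1-deleted tumours. Tnfrsf18 encodes GITR, known from regulatory and activated T cells. It ranged over 1.32, 2.13 and 5.25 CPM (lowest, median, highest) in Hmgb1-deleted tumours and 6.85, 9.15 and 13.1 CPM in floxed tumours. Its values in the normal livers were 1.95, 1.22 and 1.53 CPM. Every Hmgb1-deleted tumour was below every floxed tumour, Hmgb1-deleted tumour 6 at 5.25 CPM came nearest, and numbers 1, 2 and 5 lay within the range of normal liver at 1.32, 1.52 and 1.79 CPM. Tnfrsf18 fell by 1.87 ± 0.32 on the log2 scale in Hmgb1-deleted against floxed tumours (edgeR adjusted p = 0.00675), that is 3.66-fold. It remained called in all 21 alternatives, with log2 fold changes of -2.60 to -1.67 and a highest adjusted p of 0.0176. Tnfrsf18 was higher in floxed tumours than in normal liver (2.57 ± 0.27, adjusted p = 5.36e-05), while Hmgb1-deleted tumours differed from normal liver by 0.69 ± 0.45 (adjusted p = 0.245), which was not called. Of its 50-base stretches 18.7% lie in the antisense gene Gm16008, and without strand such reads cannot be told apart.

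Markers of T cells were set beside Tnfrsf18. The 10 T cell markers summed to 7.70 to 23.6 CPM in Hmgb1-deleted tumours, 16.0 to 60.3 CPM in floxed tumours and 12.3 to 14.3 CPM in normal livers. Most of that gap was 1 gene: without Zap70 the other 9 markers summed to 13.8 ± 6.13 CPM in Hmgb1-deleted tumours (SD, n = 6), 15.4 ± 14.2 CPM in floxed tumours (n = 6) and 6.35 ± 1.804 CPM in normal livers (n = 3). Between Hmgb1-deleted and floxed tumours 1 of the 10 was lower, the kinase Zap70, at 1.26 CPM in Hmgb1-deleted against 19.99 CPM in floxed tumours. The defining T cell gene Cd3e averaged 1.16 CPM in Hmgb1-deleted tumours and 1.17 CPM in floxed tumours, with a log2 fold change of 0.02 ± 0.54 (adjusted p = 0.989). Cd8a averaged 2.32 CPM in Hmgb1-deleted and 3.60 CPM in floxed tumours, and was not called either (adjusted p = 0.567). Against normal liver 7 of the 10 markers were higher and 1 was lower in Hmgb1-deleted tumours, where 34.7% of all genes were called. In floxed tumours 3 of the 10 were higher, where 48.7% of all genes were called.

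Tnfrsf4, which lies next to Tnfrsf18 and encodes the costimulatory receptor OX40, was lower in level. It ranged over 0.549, 0.762 and 1.46 CPM (lowest, median, highest) in Hmgb1-deleted tumours and 0.562, 1.26 and 1.74 CPM in floxed tumours. The normal livers held 0.203, 0.285 and 0.295 CPM. All tumours were above all normal livers and the tumour groups overlapped. Tnfrsf4 was called higher in Hmgb1-deleted tumours (log2 fold change 1.75 ± 0.41, adjusted p = 0.0121) and in floxed tumours (2.16 ± 0.46, adjusted p = 0.00316) than in normal liver. The call for Hmgb1-deleted tumours ended with a replicate block or without normal liver 1 (adjusted p = 0.0646 without that liver; 0.00362 to 0.0646 over alternatives). Their ligands Tnfsf18 and Tnfsf4 did not pass 0.439 and 0.0865 CPM in any library, and Tnfsf4 had 0 counts in all 3 normal livers, which allows up to 0.122 to 0.148 CPM per library.

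The receptor of LIGHT ran the other way from most called members. Tnfrsf14 encodes HVEM, the receptor that binds LIGHT and the inhibitory partner BTLA. It ranged over 0.779, 2.56 and 5.81 CPM (lowest, median, highest) in Hmgb1-deleted tumours and 0.762, 1.52 and 2.64 CPM in floxed tumours. Its values in the normal livers were 5.93, 5.25 and 4.09 CPM. Every floxed tumour was below every normal liver, and among Hmgb1-deleted tumours only number 4, at 5.81 CPM, lay within the normal range. Tnfrsf14 was lower in floxed tumours than in normal liver, with a log2 fold change of -1.60 ± 0.37 (adjusted p = 0.00522), and remained called in all 16 alternatives. Its log2 fold change was -0.75 ± 0.46 between Hmgb1-deleted tumours and normal liver (adjusted p = 0.221) and 0.87 ± 0.43 between Hmgb1-deleted and floxed tumours (adjusted p = 0.228). Tnfsf14, which encodes LIGHT, was at 0.319 to 0.915 CPM in Hmgb1-deleted tumours, 0.431 to 1.14 CPM in floxed tumours and 0.0812, 0.407 and 0.394 CPM in normal livers, and was not called.

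**Figure D3:**
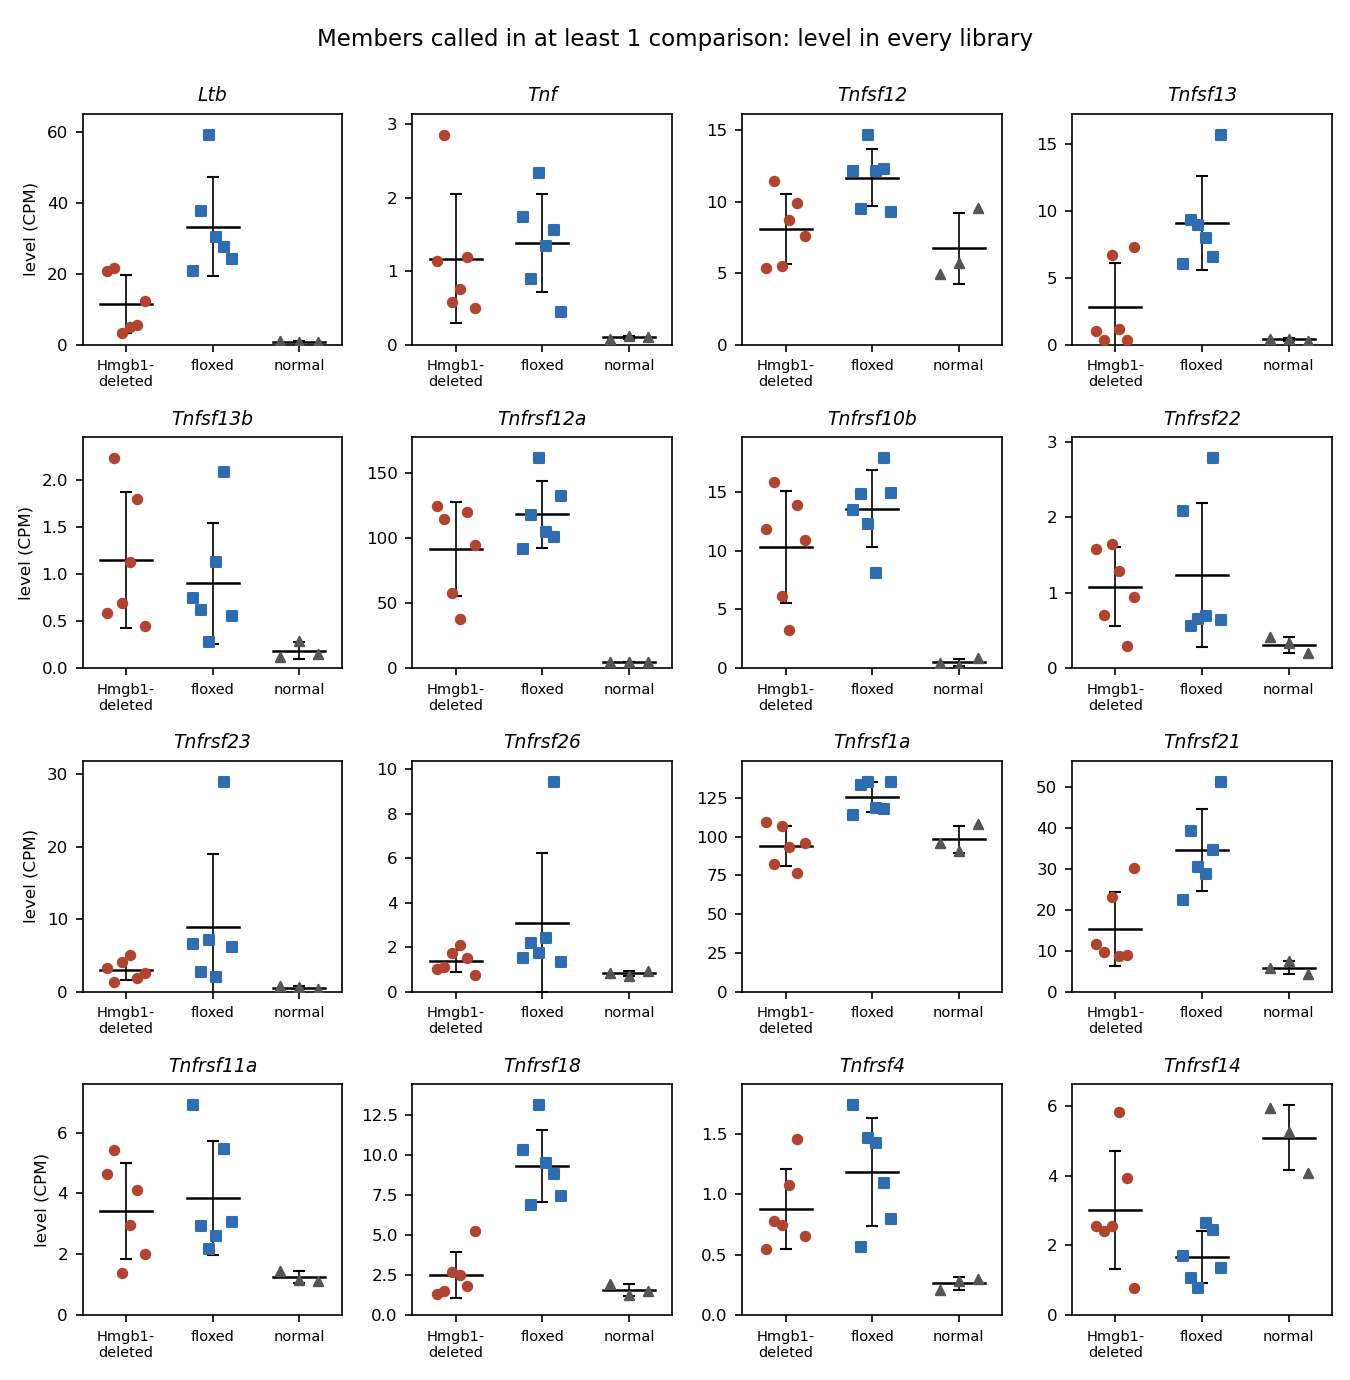
Level in CPM of the 16 members called in at least 1 comparison, 1 point per library, for 6 Hmgb1-deleted tumours (circles), 6 floxed tumours (squares) and 3 normal livers (triangles), with lines for the mean and bars for the SD, cut at 0. Tnfrsf18 separates Hmgb1-deleted from floxed tumours, Tnfsf13 and Tnfrsf21 split the Hmgb1-deleted tumours, and Tnfrsf14 is highest in normal livers.

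The other members were low in most libraries. Of the 35 members 10 were under 1 CPM in every library, and 10 were tested in no comparison: Lta, Tnfrsf13b, Tnfrsf17, Tnfrsf8, Tnfrsf9, Tnfsf11, Tnfsf18, Tnfsf4, Tnfsf8 and Tnfsf9. Tnfrsf8 encodes CD30 and Tnfsf8 its ligand, and neither passed 0.6 CPM. Of the members tested in at least 1 comparison, 9 were called in none.

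Floxed tumour 5 stood apart in several members, a pattern picked out after the values were seen. In floxed tumour 5 the costimulatory receptor Tnfrsf9, known from activated T cells, was at 10.03 CPM, where the other floxed tumours did not pass 1.17 CPM and Hmgb1-deleted tumours not 0.512 CPM. Its ligand Tnfsf9 was at 1.37 CPM in floxed tumour 5, and under 0.4 CPM in the other 14 libraries. Tnfrsf23, Tnfrsf26 and Tnfrsf25, at 29.0, 9.44 and 3.45 CPM, were also highest of all 15 libraries there. So were Tnfrsf22, Tnfrsf10b, Tnfrsf1b and Tnfrsf8, at 2.78, 17.9, 45.5 and 0.235 CPM. Tnfrsf22, Tnfrsf23 and Tnfrsf26 are neighbours on chromosome 7 with shared sequence or a shared antisense overlap, so their values need not be independent. The same tumour had the highest summed stellate cell and fibroblast markers, 926 CPM. It also had the highest endothelial markers, 485 CPM, and the highest macrophage markers, 692 CPM. Its T cell markers summed to 16.0 CPM, the lowest of the floxed tumours. That sum includes Zap70, so it cannot by itself rank the tumours by T cells. The part of these cell types in the values of floxed tumour 5 was not tested.

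**Figure D4:**
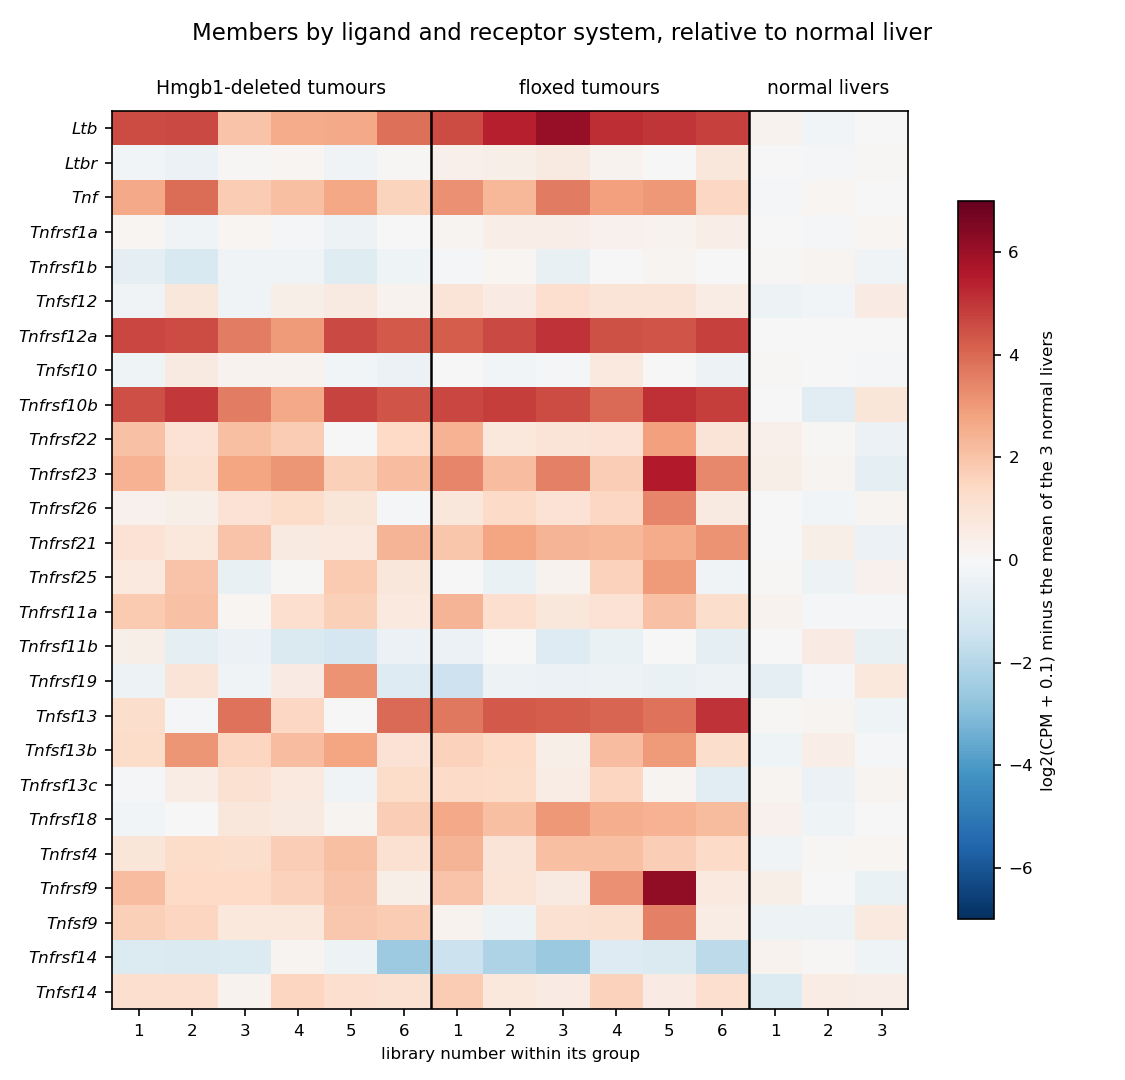
Heat map of 26 members, grouped by ligand and receptor system, over 6 Hmgb1-deleted tumours, 6 floxed tumours and 3 normal livers, as log2(CPM + 0.1) minus the mean of the normal livers. Ltb, Tnfrsf12a and Tnfrsf10b are red in all tumours, Tnfsf13 is red in floxed tumours and in Hmgb1-deleted tumours 3 and 6, and Tnfrsf9 and Tnfrsf23 are darkest in floxed tumour 5.

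Relatives outside the naming rule numbered 11, of which 7 had enough counts. Between Hmgb1-deleted and floxed tumours 1 was higher and 1 was lower, 28.6% of the tested against 7.78% of all genes, with a median log2 fold change of -0.24. The gene that was lower was Cd40, the costimulatory receptor of B cells, macrophages and dendritic cells, at 2.98 ± 0.880 CPM in Hmgb1-deleted and 14.4 ± 5.65 CPM in floxed tumours (log2 fold change -2.25 ± 0.27, adjusted p = 0.00129). The gene that was higher was Eda, the ligand ectodysplasin, at 3.14 ± 1.22 CPM in Hmgb1-deleted and 0.902 ± 0.281 CPM in floxed tumours (1.83 ± 0.32, adjusted p = 0.00678). In floxed tumours against normal liver 4 of the 7 were higher and 1 was lower, 71.4% against 48.7% of all genes called, with a median of 1.63. Cd40 rose by 4.64 ± 0.41 and Eda2r, an ectodysplasin receptor and p53 target, by 3.39 ± 0.59 on the log2 scale, while Eda fell by 1.57 ± 0.32. In Hmgb1-deleted tumours against normal liver 2 of the 7 were higher, Cd40 (2.39 ± 0.36, adjusted p = 0.00239) and Relt (1.38 ± 0.43, adjusted p = 0.0347), 28.6% against 34.7% of all genes called, with a median of 1.06. The call of Relt ended without Hmgb1-deleted tumour 2 or 5 or normal liver 2 or 3 (adjusted p 0.0522 to 0.138), and in floxed tumours against normal liver without normal liver 2 or 3 (0.104 and 0.0859). For Hmgb1-deleted tumours the call of Relt also ended with a replicate block and without tumours 2 and 5 together. Fas, the classical death receptor, was at 23.5 ± 4.66 CPM in Hmgb1-deleted tumours, 17.3 ± 4.97 CPM in floxed tumours and 22.1 ± 2.54 CPM in normal livers.

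Downstream of the receptors, the adaptors and complex components moved in both directions. All 29 were tested. Between Hmgb1-deleted and floxed tumours 1 was higher (3.45% of the tested, against 7.78% of all genes called; median log2 fold change 0.01). It was Ikbkg, the regulatory subunit of the IkB kinase complex, at 145 CPM in Hmgb1-deleted and 82.5 CPM in floxed tumours (0.84 ± 0.16, adjusted p = 0.00948), and it overlaps G6pdx on the other strand. In floxed tumours against normal liver 6 were higher and 10 lower (median 0.00), 55.2% of the tested, where 48.7% of all genes were called. Chuk, an IkB kinase, fell by 1.21 ± 0.14, the adaptor Traf6 by 1.01 ± 0.16 and the deubiquitinase Cyld by 0.79 ± 0.12, whereas Map3k14, the kinase of the noncanonical NF-kB route, rose by 1.53 ± 0.28 on the log2 scale (adjusted p = 0.00153). In Hmgb1-deleted tumours against normal liver 3 were higher and 6 lower (median 0.09), 31% of the tested, where 34.7% of all genes were called. Tab2, an adaptor of the kinase TAK1, fell by 0.97 ± 0.17, Traf6 by 0.73 ± 0.15, Tab3 by 0.62 ± 0.11 and Cyld by 0.52 ± 0.11. Tab3 and Cyld were not called on library totals with no scaling factor (adjusted p = 0.159 and 0.352). Tab3 was not called with a replicate block either.

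Of the NF-kB subunits and target genes 27 of 28 were tested. Between Hmgb1-deleted and floxed tumours 1 was higher and 2 were lower, 11.1% of the tested against 7.78% of all genes, with a median log2 fold change of 0.03. Sod2, the mitochondrial superoxide dismutase, rose by 0.87 ± 0.16 (adjusted p = 0.00833), and the adhesion molecule Vcam1 and the chemokine Cxcl1 fell by 0.97 ± 0.22 (adjusted p = 0.0199) and 1.01 ± 0.24 (adjusted p = 0.0251). The call of Cxcl1 ended without floxed tumour 1 (adjusted p = 0.0536), floxed tumour 3 (0.054) or Hmgb1-deleted tumours 2 and 5 (0.00126 to 0.054 over alternatives). That of Vcam1 ended on library totals (0.156) and without Hmgb1-deleted tumours 3, 4 and 6 (0.0939). Lcn2, the iron-binding lipocalin, had a log2 fold change of -2.07 and was not called (adjusted p = 0.0511). It passed without Hmgb1-deleted tumour 1 (0.0472), Hmgb1-deleted tumour 2 (0.0312) or floxed tumour 4 (0.0369), over a range of 0.002 to 0.148. In floxed tumours against normal liver 17 were higher and 2 lower (median 1.26), 70.4% of the tested, where 24.9% of all genes were higher and 23.8% lower. Among them were Lcn2 at 8.22 ± 0.69, Vcam1 at 3.11 ± 0.27 and the subunit Nfkb2 at 1.58 ± 0.14, with Sod2 at -1.48 ± 0.13. In Hmgb1-deleted tumours against normal liver 18 were higher and 1 was lower (median 1.73), also 70.4% of the tested, where 18.1% of all genes were higher and 16.6% lower. They included Ccl5 at 2.496 ± 0.39, Vcam1 at 2.13 ± 0.32 and Il1b at 1.82 ± 0.24. Bcl2a1b, at 3.39 ± 0.51, has near-identical copies and is uncertain.

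Other cell types were followed by marker sums. Macrophage markers, 10 genes, were at 350 to 546 CPM in Hmgb1-deleted tumours, 226 to 692 CPM in floxed tumours and 257 to 384 CPM in normal livers. Neutrophil markers were at 10.7 to 18.4 CPM in Hmgb1-deleted tumours, 5.37 to 38.3 CPM in floxed tumours and 3.91 to 5.40 CPM in normal livers. Dendritic cell markers were at 16.7 to 37.6 CPM in Hmgb1-deleted tumours, 13.4 to 36.8 CPM in floxed tumours and 8.91 to 11.9 CPM in normal livers. NK cell markers were at 2.46 to 5.97 CPM in Hmgb1-deleted tumours, 1.91 to 9.47 CPM in floxed tumours and 1.87 to 2.64 CPM in normal livers. The part of these cell types in the members' differences was not tested.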

How the data were processed

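The authors deposited raw read counts per gene, 1 whole number per gene symbol and sample. Poly-A RNA was prepared with a TruSeq kit, per the labels, and the strand setting of the counting is unknown here. Per the submitters' processing notes HTSeq 0.6.1 was used along with Bowtie2 2.2.4, bcl2fastq 1.8.4 and TopHat2 2.1.0, and the build was mm9. Replicates were not pooled, and no 2 libraries of a group agreed within sampling noise.

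From these counts, edgeR 4.0.16 in R 4.3.3 (filterByExpr, TMM factors, robust quasi-likelihood F test) compared each pair of groups in a fit of its own, with Benjamini-Hochberg adjustment over all genes tested. P-values called adjusted are of this kind, except where an alternative is named. Those come from the fit of that alternative, and ranges over alternatives include the adjusted p of DESeq2. The SE is the absolute log2 fold change divided by the square root of F. The procedure was tested on simulated counts. Gene-level precision is limited by depth and by 3 to 6 libraries a group. The counting interval for Tnf treats reads as independent molecules and covers counting error only.

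Members, gene lists and marker lists were chosen with earlier results of these data known. For up to 12 members with the smallest adjusted p the lowest, median and highest value of each tumour group and the value of every normal liver are given, and in the lists for genes with the smallest adjusted p. Alternatives were other scaling, other filters, DESeq2 1.42.0, 1 fit over the 15 libraries, a replicate block and libraries left out. Exon lengths and overlaps are GENCODE's, promoters RefSeq's, on GRCm38, and were used for lengths, shared sequence and motifs only, since mm9 was not used here.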

Additional observations from a re-analysis of the deposited data

Results flagged for a closer look

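In 4 of 50 sets of 6 tumours, each set 1 member in 1 tumour group, a library lay apart from the others on the log2(CPM + 0.5) scale, by a gap to its nearest neighbour above 0.625 of the whole range. Chance gives such a gap in about 5% of sets. Tnfrsf19 was lowest in floxed tumour 1 at 2.73309 CPM, with the next floxed tumour at 5.45 CPM. Tnfrsf26 was highest in floxed tumour 5 at 9.44448 CPM, with the next at 2.42 CPM. Tnfsf10 was highest in floxed tumour 4 at 11.5051 CPM, with the next at 7.33 CPM. Tnfsf14 was lowest in Hmgb1-deleted tumour 3 at 0.31868 CPM, with the next Hmgb1-deleted tumour at 0.656 CPM. The sets did not cover every member. Tnfrsf9 and Tnfsf9, tested in no comparison, were not among them, though floxed tumour 5 stood apart in both (10.03 and 1.37 CPM).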

How the results depend on the processing

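Between Hmgb1-deleted and floxed tumours the count of called members, 1, was 3 with RLE factors, 2 on library totals, 2 with a filter of at least 1 CPM, 7 with DESeq2, 5 with all 15 samples in 1 fit, 5 without Hmgb1-deleted tumours 3, 4 and 6, 2 without Hmgb1-deleted tumours 2 and 5, and between 1 and 3 with 1 library left out. DESeq2 and the joint fit also called more of all genes, 1954 and 1629 against 1045. For floxed tumours against normal liver the count, 16, lay between 14 and 18 under other settings and between 11 and 17 with 1 library left out. The 11 calls came without normal liver 1, where 4860 of all genes were called, against 6714 in the main fit. For Hmgb1-deleted tumours against normal liver the count, 10, lay between 5 and 10 with 1 library left out and was 12 with no filter and with DESeq2. The 5 calls came without normal liver 1, where 2113 of all genes were called, against 4787 in the main fit. The replicate numbers were not treated as pairs in the main fits. Correlations of same-numbered deviations ran between -0.204 and 0.18, over too few samples to exclude pairing or a shared batch. With a replicate block the counts were 3, 16 and 7 in the same order of comparisons. Library totals moved the median log2 fold change of all genes between Hmgb1-deleted and floxed tumours to 0.20, and to 0.15 in floxed and 0.33 in Hmgb1-deleted tumours against normal liver. Signs turned for members that were not called between Hmgb1-deleted and floxed tumours: Tnf was at 0.0665 on library totals and 0.316 without Hmgb1-deleted tumours 3, 4 and 6, where Tnfrsf10b was at 0.0256 and Tnfrsf12a at 0.0175, while with 1 library left out Tnf lay between -0.6978 and 0.0171. Of 1268 estimates for members under alternatives 48 changed sign, 0 of them of a called member. The causes were not tested.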
